A study of Danio rerio with 6 samples.

Results

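The 34 genes described here had a lower transcript level in each of 3 atoh1b-MO samples than in any of 3 control samples of sorted zebrafish cells. They were chosen on these same measurements. A nuclear gene was taken when its highest level among the atoh1b-MO samples lay under its lowest level among the controls, when its mean control level was at least 5 CPM, and when the mean control level was at least 1.5 times the mean atoh1b-MO level. CPM is the count of a gene for each 1000000 counts of its sample. Of 32229 nuclear genes, 11004 had the required control level, and 37 of these (0.336%) met the whole rule. The immediate early genes fosab (listed under the symbol FOS), egr1 and junba (the JUNB of chromosome 1) were among the 37 and are left out of the 34 by the rule. Because the levels themselves selected the genes, the difference between the groups is given as a description without a test.

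Cells came from zebrafish embryos (Danio rerio, AB wild-type strain) that were heterozygous for Gt(pax8:DsRedx), a line in which DsRed marks cells that express pax8, namely the OEPD (the otic-epibranchial progenitor domain, from which the inner ear forms) and the kidney precursors, or nephric anlagen. Controls were labelled wt, with no control morpholino named, and atoh1b-MO embryos received a morpholino against atoh1b at the one-cell stage. All embryos were dissociated in the late OEPD stage, early in segmentation, and DsRed-positive cells were collected by fluorescence-activated cell sorting, so each sample pooled cells of several embryos and of both tissues. The samples are control I, II and III and atoh1b-MO II, IV and V, named by their titles. Titles and the series text name atoh1b as the depleted gene, but the genotype field of these samples names dlx3b/4b; groups follow the titles. In such bulk samples, fewer cells of a type and less RNA for each cell cannot be told apart.

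Atoh1b is a basic helix-loop-helix transcription factor that the early hair cells of the zebrafish ear require. In the ear, Delta ligands of forming hair cells activate Notch in their neighbours, where Notch switches on repressors of the Hairy and Enhancer of split families, and Id proteins bind and block basic helix-loop-helix factors. Immediate early genes are transcribed within minutes of a growth factor or a stress signal, many of them through the serum response factor SRF.

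Total counts ranged from 24120228 to 37169850 for each sample, and the floor of 3 counts equalled between 0.0807 and 0.124 CPM. The atoh1b row, on an unplaced scaffold, was listed with 0 counts in all samples, as were the 565 genes on such scaffolds, so the depletion could not be checked. Control III stood apart from the other controls. Its level of PAX8, the gene of the reporter, was 15.8 CPM against 285 and 228 CPM in control I and II, and 22 nephric genes summed to 414 CPM against 2756 and 2585 CPM. Blood and endothelium genes summed to 324 CPM in control III, against 4694 and 3949 CPM in control I and II. In atoh1b-MO II, IV and V they summed to 2359.5, 3460.5 and 4206 CPM. Forebrain genes summed to 429 CPM in control III and to 201 CPM in atoh1b-MO II, and to between 43.6 and 71.6 CPM in the other 4 samples. Hindbrain and neural genes summed to 2044 CPM in control III and 1075 CPM in atoh1b-MO II, and to between 412 and 551 CPM elsewhere. Control II also differed from control I. Epidermis and ionocyte genes summed to 8787 CPM in control II and 11220 CPM in control III, against 2551 CPM in control I. In atoh1b-MO II, IV and V they summed to 6090, 2958.5 and 3230 CPM. OEPD and otic genes summed to 3064 CPM in control II, and to between 1814 and 2213 CPM in the other samples. The part of these tissue differences in the results below was not tested.

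Summed over the 34 genes, the level was 1976, 2040 and 2045 CPM in control I, II and III. It was 1243, 1195 and 1255 CPM in atoh1b-MO II, IV and V. The sum was dominated by ID1 and srsf5a. Without them it was 693, 785 and 723 CPM in the controls and 439, 406 and 410 CPM in the atoh1b-MO samples. The ratio of the mean control level to the mean atoh1b-MO level ran from 1.51 to 3.58 with a median of 1.73, while the median over all 11004 genes was 0.971. Only 8 genes had a ratio of at least 2, and only 2, her4.4 and pou4f4, of at least 3. Mean control levels were under 10 CPM for 12 genes, from 10 to 50 CPM for 16 and at least 50 CPM for 6.

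**Figure D1:**
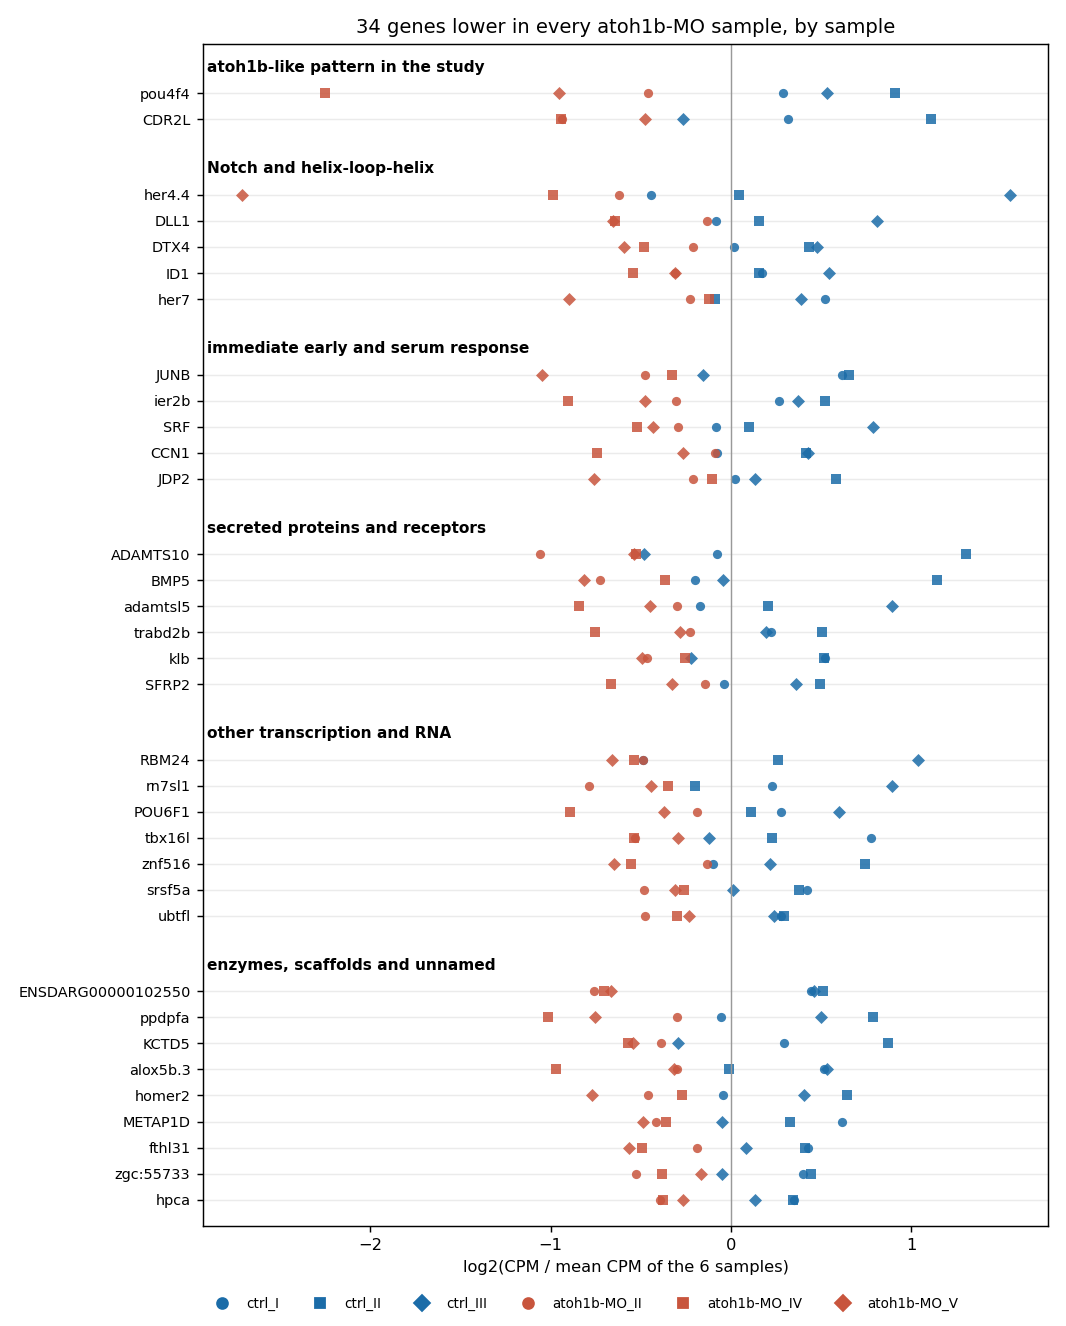
Level of each of the 34 genes in each sample as log2 of CPM over the mean CPM of the 6 samples, in groups by the known role of the gene and ordered by ratio within a group. Blue points are the controls and red points the atoh1b-MO samples, and every red point lies left of every blue point of its gene because the rule required it; the width of the space between the colours differs, from none to be seen for RBM24 to the widest for ENSDARG00000102550.

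A list of genes with an OEPD expression like that of atoh1b was taken from the study. Its gene gfi1ab could not be matched to an identifier in the data, and the other 8 genes all reached the control level. Of these 8, 2 belonged to the 34. The first was pou4f4 (ENSDARG00000044375, chr21:38264843-38267535, plus strand), a transcription factor gene of the POU class 4 also known as zgc:158291. Its level was 9.65, 14.8 and 11.4 CPM in control I, II and III and 5.73, 1.66 and 4.07 CPM in atoh1b-MO II, IV and V. The lowest control was 1.68 times the highest atoh1b-MO sample (95% counting interval 1.37 to 2.07, exact binomial). Counting intervals here cover counting error in the closest pair of samples, which the rule had already ordered. They do not cover the spread between replicates and so say nothing about the groups. The ratio of the means was 3.13, and 3.20 without control III. Its relatives POU4F1, POU4F2 and POU4F3 had mean control levels of 0.966, 0.183 and 0 CPM, so none of them reached the level of the rule.

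The second was CDR2L (ENSDARG00000026834, chr3:59659895-59690351, minus strand), whose human product is known as an antigen in paraneoplastic cerebellar degeneration. It was measured at 21.5, 37.1 and 14.3 CPM in control I, II and III and at 9.0, 8.96 and 12.4 CPM in atoh1b-MO II, IV and V. Controls scattered widely and the atoh1b-MO samples little, and the gap was set by control III over atoh1b-MO V. The mean ratio was 2.40 with control III and 2.90 without it. Its paralogs cdr2a and cdr2b had mean control levels of 1.21 and 0.0322 CPM.

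The other 6 of these 8 genes overlapped between the groups. HAS3, which encodes a hyaluronan synthase, was at 6.38, 16.1 and 1.30 CPM in the controls and 4.102, 4.64 and 3.90 CPM in the atoh1b-MO samples. Control III thus lay under every atoh1b-MO sample, and the same held for si:dkey-222f2.1 and for foxj1b and MNS1, genes known for motile cilia. With the rule applied without control III, 5 of the 8 genes met it, namely pou4f4, CDR2L, HAS3, ulk1a and si:dkey-222f2.1, while 117 of 10816 genes (1.08%) met it in all. This list was drawn up by the study partly for loss in dlx3b/4b mutants, in other embryos. The study then reported foxj1b, MNS1, ulk1a, CDR2L, HAS3, si:dkey-222f2.1 and pou4f4 as lower in its atoh1b-MO RNAseq, with a diverging wild-type sample dismissed. Those RNAseq calls used samples that are also described here. By in situ hybridization it found these genes, CXCL14 and gfi1ab reduced or absent in the OEPD of atoh1b mutants. The 2 genes of 8 stand beside 37 of 11004 (0.336%) for the whole rule over all genes, and HAS3, ulk1a, CXCL14 and both members made 5 of the 8 with a ratio of at least 1.5, which 4.08% of all 11004 genes had whether or not the groups overlapped.

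**Figure D2:**
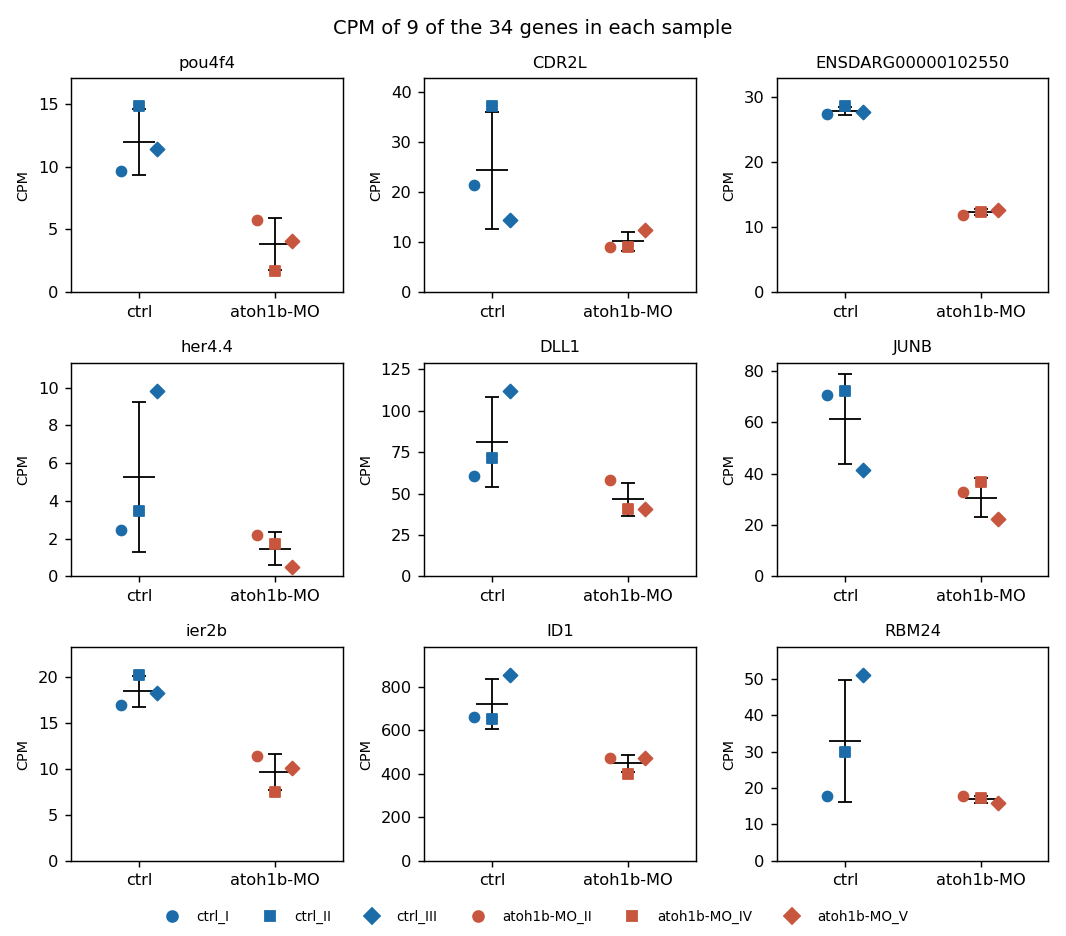
CPM of 9 of the 34 genes in each control (blue) and atoh1b-MO sample (red), with the mean as a bar and the SD of the 3 samples as whiskers; circles, squares and diamonds are samples I, II and III of the controls and II, IV and V of atoh1b-MO. ENSDARG00000102550 shows the tightest groups, and the high control III sets much of the control mean of her4.4, DLL1 and RBM24.

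Genes of Notch signalling and of the helix-loop-helix families formed a group of 5, with ratios from 1.596 to 3.58. The highest ratio of all 34 belonged to her4.4 (ENSDARG00000009822, chr23:21535470-21544507, minus strand), a Hairy and Enhancer of split repressor that Notch activates in neural tissue of zebrafish. Its level was 2.47, 3.47 and 9.84 CPM in control I, II and III and 2.19, 1.70 and 0.513 CPM in atoh1b-MO II, IV and V, the last resting on 15 counts. The mean was carried by control III, the sample with the highest neural sums, and the ratio was 2.02 without it, with a mean of control I and II of 2.97 CPM, under the level of the rule. Exons of her4.4 overlap those of her4.5 on the same strand, and the her4 genes are near-identical copies whose reads a counter can split or drop, so the levels of single copies are uncertain. The other her4 copies had ratios of 2.85 for her4.1, 2.63 for her4.2, 1.65 for her4.3 and 3.20 for her4.5, where her4.3 had a mean control level of only 0.286 CPM. Of these, her4.1 alone had no overlap between the groups, at a mean control level of 4.45 CPM.

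The ligand gene DLL1 of chromosome 13 (ENSDARG00000020219, chr13:5947112-5953343, minus strand), taken as dld, encodes a Delta protein. It was at 60.5, 71.2 and 112 CPM in control I, II and III and at 58.3, 41.0 and 40.7 CPM in atoh1b-MO II, IV and V. The closest samples, control I and atoh1b-MO II, differed by a factor of 1.04 with a counting interval of 0.968 to 1.11, so these samples were not separated at this depth. The DLL1 of chromosome 1, taken as dla, had a ratio of 1.599 but overlapped, since atoh1b-MO II with 75.4 CPM lay above control I with 50.03 CPM. Both Delta genes were highest in control III and, among the atoh1b-MO samples, in atoh1b-MO II. Without control III the ratio of the chromosome 13 gene was 1.41.

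DTX4 (ENSDARG00000076302, chr7:18305997-18348939, minus strand), named for Deltex, a ubiquitin ligase that acts on Notch, was at 22.0, 29.4 and 30.3 CPM in control I, II and III. It was at 18.8, 15.5 and 14.4 CPM in atoh1b-MO II, IV and V, a ratio of 1.68 that remained 1.58 without control III. Its counting interval for the closest samples lay above 1. The segmentation clock repressor gene her7 (ENSDARG00000017917, chr5:68036503-68037818, plus strand) was at 14.6, 9.52 and 13.3 CPM in the controls and 8.64, 9.33 and 5.44 CPM in the atoh1b-MO samples, so that control II and atoh1b-MO IV nearly met.

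ID1 (ENSDARG00000040764, chr11:18541849-18542961, minus strand), a blocker of basic helix-loop-helix factors and a target of BMP signals, had the highest level of the 34. It was at 659, 650 and 853 CPM in control I, II and III and at 471, 401 and 471 CPM in atoh1b-MO II, IV and V. The lowest control was 1.38 times the highest atoh1b-MO sample (counting interval 1.35 to 1.41). The ratio was 1.61 with control III and 1.46 without it. Per kilobase of gene its mean control level was 717 CPM, against a median of 9.68 CPM per kilobase over the 34. Other Id genes had ratios of 0.996 for ID2, 0.880 for id2b and 0.941 for ID3, each lowered by a low control III. In control I, II and III, id2b was at 19.7, 22.5 and 5.66 CPM and ID3 at 321, 241 and 118 CPM.

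Over the Delta-Notch list of 29 genes at the control level, 3 had no overlap with atoh1b-MO lower, namely the DLL1 of chromosome 13, her7 and LFNG, and none had no overlap with atoh1b-MO higher. Among all 11004 genes these shares were 3.74% lower and 11.9% higher. With TMM scaling the list again had 3 lower and 0 higher, while 7.02% of all genes were lower, 777 against 774 higher. Counts this small are given without a reading. The median ratio of the list was 1.22 with all 6 samples. A ratio of at least 1.5 was found for 8 of the 29, and for 4.08% of all genes, whether or not the groups overlapped. Genes of the list with ratios near or under 1 included the receptor genes NOTCH3 with 1.01 and notch2 with 0.882, and the ligand gene dlc with 0.844. DTX4, her4.4 and ID1 were not on the list and were placed here after their values had been seen. Beside these values, the hindbrain and neural sum was highest in control III and atoh1b-MO II, and its part in them was not tested.

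**Figure D3:**
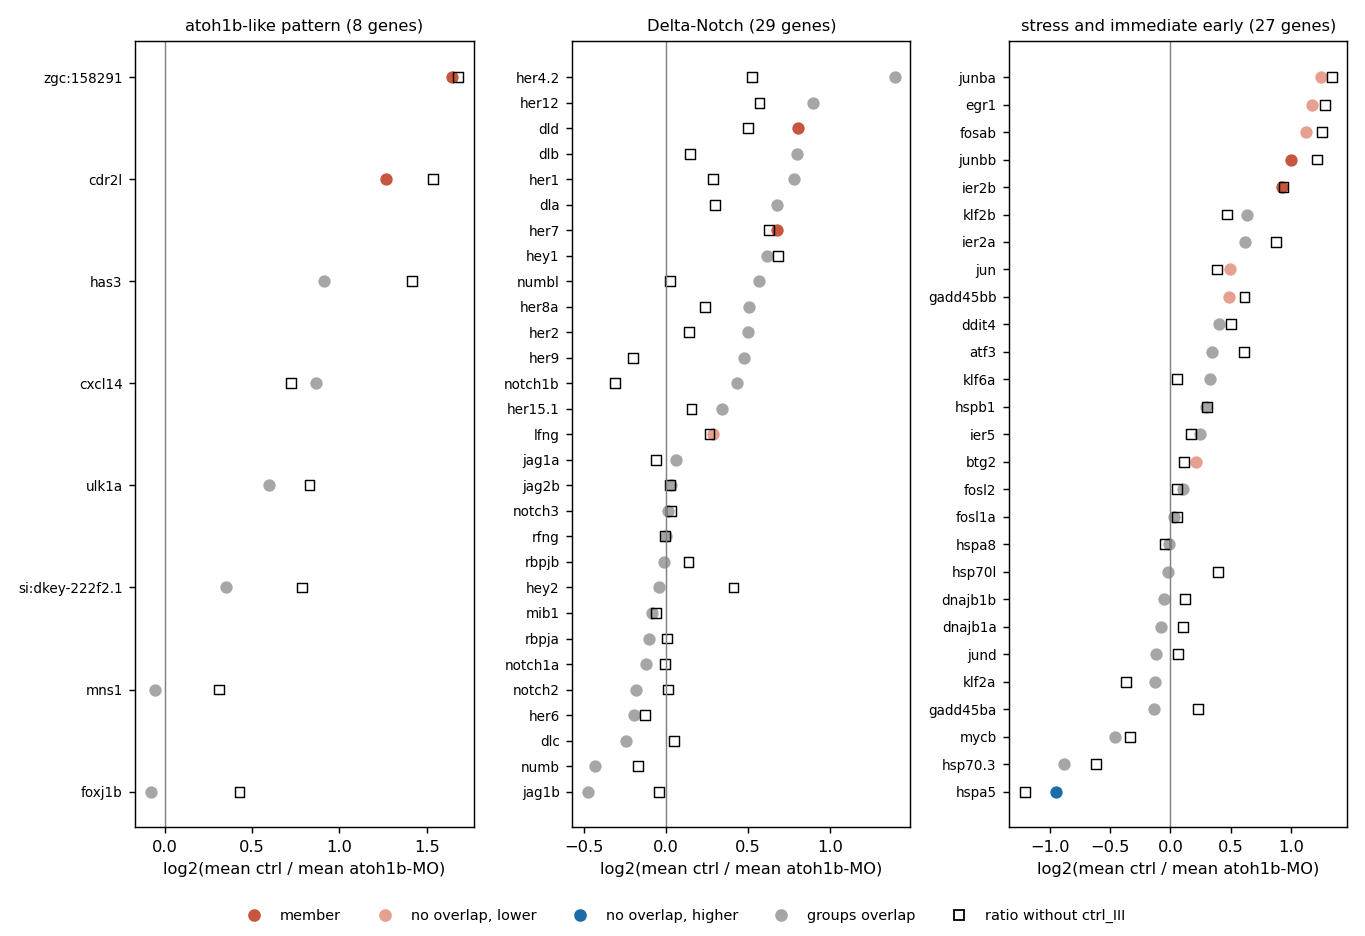
log2 of mean control CPM over mean atoh1b-MO CPM for the genes at the control level of the list with atoh1b-like expression, the Delta-Notch list and the stress and immediate early list, each gene by its list name (zgc:158291 is pou4f4, dld is the DLL1 of chromosome 13, junbb the JUNB of chromosome 3). Filled circles use all 6 samples and are coloured by overlap between the groups, and open squares leave out control III, which moves many Delta-Notch genes toward 0 and many genes with atoh1b-like expression away from it.

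Immediate early genes and relatives of the AP-1 factors formed a group of 5 beside the 3 genes that the rule leaves out. The JUNB of chromosome 3 (ENSDARG00000104773, chr3:7768815-7770219, minus strand), an AP-1 subunit, was at 70.4, 72.3 and 41.2 CPM in control I, II and III. It was at 33.0, 36.7 and 22.2 CPM in atoh1b-MO II, IV and V, with control III the closest control to the atoh1b-MO samples. Its ratio was 2.00, and 2.33 without control III. The gene ier2b (ENSDARG00000086881, chr11:30791618-30931872, minus strand), an immediate early response gene, was at 16.9, 20.2 and 18.2 CPM in the controls and at 11.3, 7.504 and 10.1 CPM in the atoh1b-MO samples. The lowest control was 1.49 times the highest atoh1b-MO sample and the ratio of 1.91 hardly moved without control III, to 1.92. Its exons overlap those of stx10 on the other strand, and reads of the genes cannot be told apart if strand was not used in counting. Its paralog ier2a had a ratio of 1.54 but overlapped, with 67.2 CPM in control III and 75.4 CPM in atoh1b-MO V.

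JDP2 (ENSDARG00000020133, chr20:46682958-46690971, plus strand), a repressor that pairs with AP-1 proteins, was the gene just inside the limit on the ratio, at 1.51. It was at 15.05, 22.2 and 16.3 CPM in the controls and 12.8, 13.8 and 8.76 CPM in the atoh1b-MO samples. It lies 32238 bases from FOS, and it was the only one of the 34 with another gene of the whole rule within 100000 bases. The matricellular growth factor partner CCN1, a known target of serum response signals, was at 10.7, 15.07 and 15.2 CPM in the controls and at 10.6, 6.76 and 9.41 CPM in the atoh1b-MO samples, so control I and atoh1b-MO II were not separated. Its ratio of 1.53 became 1.44 without control III. SRF of chromosome 13, which was not among the genes to be named and is given for its role, had a ratio of 1.66, or 1.34 without control III, while the SRF of chromosome 22 had 1.102 with overlap.

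The 3 genes left out by the rule showed wider gaps than most of the 34. FOS was at 155, 176 and 122 CPM in the controls and 76.5, 68.2 and 62.3 CPM in the atoh1b-MO samples. Ordered by the gap between the groups over all 11004 genes, the JUNB of chromosome 1, egr1 and FOS took places 2, 3 and 5, with pou4f4 in place 4 and ier2b in place 6. Of the 27 genes of the stress and immediate early list at the control level, 8 had no overlap with atoh1b-MO lower, against 3.74% of all genes, and with TMM scaling 10 of them did, against 7.02%. The whole rule was met by 5 of the 27, against 0.336% of all genes. FOS, egr1 and the JUNB of chromosome 1, which the rule leaves out by name, are among these 5 and among the 8. The list was chosen with earlier results of these data known, so its counts are not read as an excess. In the other direction 1 of the 27 genes had no overlap, against 11.9% of all genes. It was HSPA5, the chaperone of the endoplasmic reticulum, with 167, 219 and 309 CPM in the controls and 417, 492 and 433 CPM in the atoh1b-MO samples. The median ratio of the list was 1.19, and the heat shock genes HSPA8, hsp70l and dnajb1b had ratios of 0.991, 0.987 and 0.962. Within the list, both JUNB genes, egr1, FOS and ier2b had the highest ratios, the AP-1 genes JUND and FOSL1 had 0.919 and 1.02, and the heat shock genes had ratios near or under 1, apart from HSPB1 with 1.23.

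Of 6 genes for secreted proteins and their receptors, ADAMTS10, a metalloprotease of the extracellular matrix, had a ratio of 2.22. It was at 5.26, 13.7 and 3.98 CPM in the controls and 2.67, 3.86 and 3.83 CPM in the atoh1b-MO samples. The mean rested on control II, and control III and atoh1b-MO IV were within counting error of each other. BMP5, a BMP ligand, showed the same dependence on control II with 5.96, 15.12 and 6.65 CPM in the controls and 4.14, 5.31 and 3.90 CPM in the atoh1b-MO samples. The related gene adamtsl5 was instead highest in control III, with 3.69, 4.79 and 7.71 CPM in the controls against 3.38, 2.32 and 3.05 CPM, and its ratio of 1.85 became 1.45 without that sample. Of the other 3 genes, named here after their values had been seen, SFRP2 encodes a secreted Wnt antagonist, trabd2b is named for a membrane protease that inactivates Wnt proteins in vertebrates, and klb encodes a co-receptor of endocrine Fgf ligands. Their ratios were 1.57 for SFRP2, 1.64 for trabd2b and 1.64 for klb, and of the 6 genes of this group only trabd2b had a counting interval of the closest samples above 1.

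Another 7 genes act in transcription or as RNA or RNA-binding proteins. RBM24 (ENSDARG00000102995, chr19:46523208-46558357, plus strand), an RNA-binding protein of muscle and sensory cells, was the narrowest case of the 34. It was at 17.8, 29.8 and 51.0 CPM in control I, II and III and at 17.7, 17.2 and 15.8 CPM in atoh1b-MO II, IV and V. Control I and atoh1b-MO II differed by a factor of 1.003, and without control III the ratio dropped from 1.95 to 1.41. Muscle genes summed to 485 CPM in control III and to between 124 and 174 CPM in the other samples, and their part in the RBM24 value was not tested. RBM24 was the only one of 5 hair cell genes at the control level to belong to the 34. Over all 11004 genes, 0.336% met the whole rule, and the count for so short a list is given without a reading.

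The T-box gene tbx16l, expressed in presomitic mesoderm of the zebrafish, was at 53.6, 36.7 and 28.8 CPM in the controls and 21.7, 21.6 and 25.5 CPM in the atoh1b-MO samples. Its ratio was 1.73, and 1.97 without control III. POU6F1, a POU-domain transcription factor gene, was at 19.4, 17.3 and 24.2 CPM in the controls and at 14.1, 8.62 and 12.4 CPM in the atoh1b-MO samples. The zinc finger gene znf516 had a ratio of 1.69, but control I with 8.12 CPM and atoh1b-MO II with 7.92 CPM were not separated. The 7SL RNA gene rn7sl1, the RNA of the signal recognition particle, had a ratio of 1.86 with 10.21 CPM in control III and 4.79 CPM in control II, and of 1.46 without control III. This RNA is short and not polyadenylated in its mature form, and the labels describe a selection for poly(A).

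The splicing factor gene srsf5a (ENSDARG00000029818, chr13:36404398-36409296, minus strand) was at 623, 605 and 470 CPM in the controls and 333, 388 and 375 CPM in the atoh1b-MO samples. Its paralog SRSF5 of chromosome 20 also had no overlap, with a ratio of 1.33. The gene ubtfl (ENSDARG00000038780, chr2:32374388-32404223, minus strand), named for its likeness to the ribosomal RNA transcription factor UBTF, was at 78.1, 78.8 and 75.8 CPM in the controls. It was at 46.3, 52.3 and 54.7 CPM in the atoh1b-MO samples, a ratio of 1.52, just inside the limit, with a narrow spread in the controls. Its relative ubtf again had no overlap, with a ratio of 1.44. Among genes with a second copy under the same symbol, the JUNB of chromosome 1 met the whole rule, and the RBM24 of chromosome 16 was lower without overlap at a ratio of 1.38 but under the control level. The second copies of SRF, DLL1, KCTD5 and JDP2 overlapped between the groups.

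The widest gap of all 11004 genes belonged to a gene without a symbol, ENSDARG00000102550 (chr15:49205-61507, minus strand). It was at 27.4, 28.6 and 27.7 CPM in control I, II and III and at 11.9, 12.4 and 12.7 CPM in atoh1b-MO II, IV and V. The spread within each group was slight, 27.9 ± 0.626 CPM in controls and 12.3 ± 0.416 CPM in atoh1b-MO samples (SD, n = 3), and the lowest control was 2.16 times the highest atoh1b-MO sample (counting interval 1.91 to 2.45). Control III, which stood apart in its tissue markers, was here 0.989 times the mean of control I and II. The ratio was 2.27 with control III and 2.28 without it.

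The remaining genes were enzymes, scaffolds and genes of little known role. The gene ppdpfa, named for pancreatic progenitor cell differentiation and proliferation factor, was at 9.34, 16.7 and 13.7 CPM in the controls and 7.88, 4.81 and 5.75 CPM in the atoh1b-MO samples. KCTD5, an adaptor of a cullin ubiquitin ligase, was at 5.82, 8.66 and 3.87 CPM in the controls and 3.62, 3.19 and 3.25 CPM in the atoh1b-MO samples. The 5-lipoxygenase gene alox5b.3 was at 7.56, 5.25 and 7.64 CPM in the controls and 4.30, 2.69 and 4.24 CPM in the atoh1b-MO samples. These 3 genes had counting intervals of the closest samples that included 1.

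The homer2 row, annotated over only 591 bases for a scaffold protein of synapses, had a ratio of 1.80. zgc:55733 was at 102, 105 and 75.0 CPM in the controls and 53.8, 59.5 and 69.2 CPM in the atoh1b-MO samples, a ratio of 1.55. METAP1D, a methionine aminopeptidase of mitochondria, fthl31, a ferritin heavy chain-like gene, and hpca, a neuronal calcium sensor, had ratios between 1.54 and 1.67; these 3 were named after their values had been seen.

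**Figure D4:**
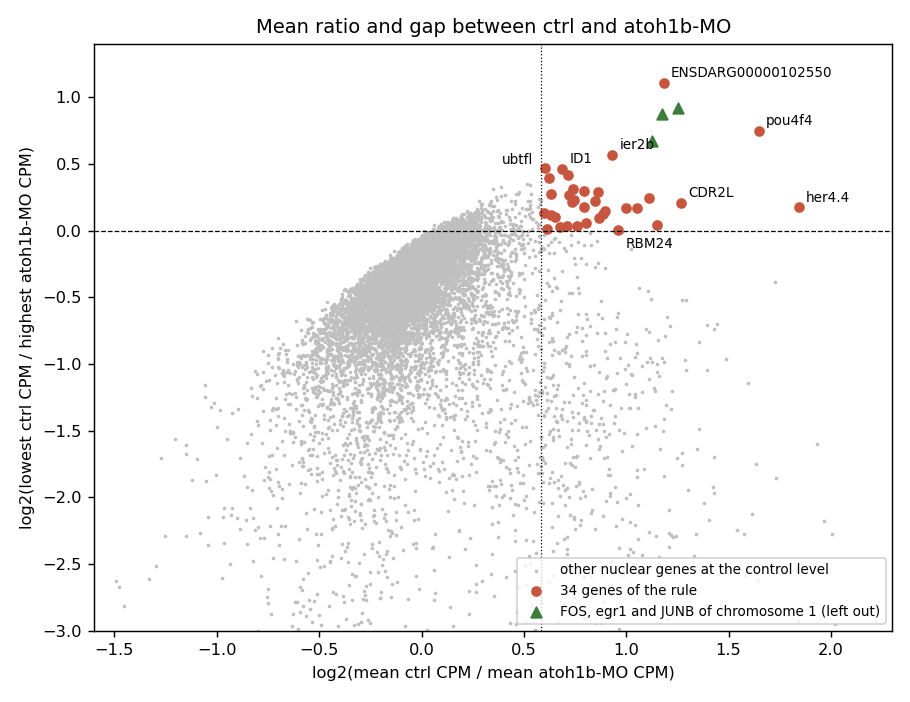
Each point is a nuclear gene with a mean control level of at least 5 CPM, plotted by log2 of its mean control over mean atoh1b-MO CPM and by log2 of its lowest control over its highest atoh1b-MO CPM; 207 genes of 11004 fall outside the axes. The 34 genes (red) and the 3 left out (green) fill the corner above the dashed line (no overlap) and right of the dotted line (ratio 1.5) by construction, and most of them sit close to a line.

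Just outside the limits were genes with much the same values. PER1 of chromosome 7 and ENSDARG00000091657 had no overlap and ratios of 1.498 and 1.492, against 1.514 for JDP2 and 1.518 for ubtfl just inside. On the control level, 5_8S_rRNA with 4.86 CPM and si:dkey-81l17.6 with 4.53 CPM stood outside, and her4.4 with 5.26 CPM and adamtsl5 with 5.398 CPM inside. On overlap, ENSDARG00000103982 and sb:cb81 had a lowest control of 0.992 and 0.987 times the highest atoh1b-MO sample, against 1.003 for RBM24 and 1.009 for CCN1. Over the 34, the counting interval for the closest pair of samples lay above 1 for 15 genes and included 1 for 19. Such intervals cover counting error only.

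How the samples lay within their groups differed from the background. Control III was the lowest control for 13 of the 34 genes (38.2%), against 51.1% of all 11004 genes, and it was the highest for 11. Control I was the lowest for 16 genes (47.1%), against 29.2% of all genes, and control II the highest for 16. Among the atoh1b-MO samples, atoh1b-MO II was the highest for 18 genes (52.9%), against 35.3% of all genes. The level varied more between samples than for most genes in both groups. In the controls the median coefficient of variation was 22.3% over the 34 and 14.4% over all genes. In the atoh1b-MO samples it was 17.4% and 9.72%. The 34 also had lower levels, with a median control level of 13.9 CPM against 28.7 CPM over all genes. These shares and spreads describe genes selected on the same values and carry no test. Without control III, 27 of the 34 kept a mean ratio of at least 1.5, and her4.4 and adamtsl5 had a mean of control I and II under 5 CPM.

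**Figure D5:**
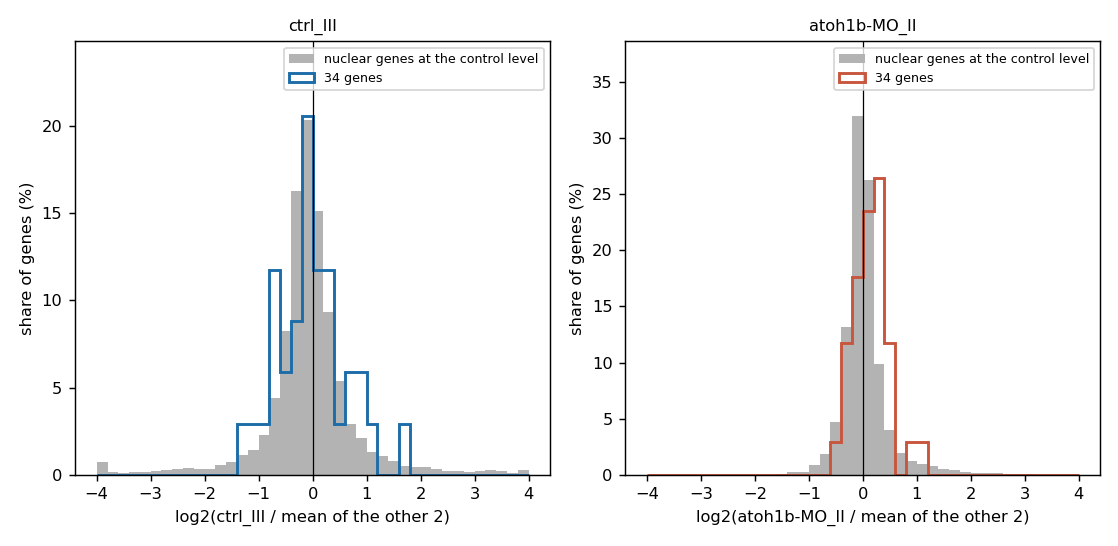
Share of genes (%) by log2 of control III over the mean of control I and II (left) and of atoh1b-MO II over the mean of atoh1b-MO IV and V (right), for the 34 genes (outline) and for all 11004 nuclear genes at the control level (grey), with genes beyond the axes in the end bins. The 34 genes lack the long tails of control III, with medians of 0.974 times for control III and 1.13 times for atoh1b-MO II. The rule required control III to lie above every atoh1b-MO sample, which takes away its low tail by construction.

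The rule depended strongly on which samples it used. Leaving out 1 sample makes separation easier by construction, and the number of genes rose to 347 without control I, 114 without control III, 173 without atoh1b-MO II, 56 without atoh1b-MO IV, 56 without atoh1b-MO V and 44 without control II. Of the 34, between 25 and 32 met the rule in each of these cases, 29 without control I and 26 without control III. With TMM scaling 66 genes met it, and all 34 were among them. Among all genes without overlap, 412 were lower and 1309 higher in atoh1b-MO, so 23.9% were lower, and with TMM scaling 777 were lower and 774 higher (50.1%). By CPM the set was the smaller side of the comparison, since with the same ratio of at least 1.5, 134 genes (1.22%) were higher without overlap.

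A model over all genes gives a further description, though it uses the contrast of the rule and supports nothing beyond it. The study dismissed a diverging wild-type sample without naming it. With control III left out, edgeR's quasi-likelihood test called 27 of 18397 genes (0.147%) lower at an adjusted p below 0.1, and 9 of the 34 were among them. These were ENSDARG00000102550, srsf5a, zgc:55733, ID1, ubtfl, JUNB of chromosome 3, CDR2L, fthl31 and tbx16l. DESeq2 called 227 of 17831 (1.27%) lower, 22 of the 34 among them. The number of edgeR calls among the 34 was 0 without control I, 2 without control II or atoh1b-MO IV, 4 without atoh1b-MO V and 14 without atoh1b-MO II. With all 6 samples edgeR called 0 genes, while 443 of 17874 (2.48%) were lower at an unadjusted p below 0.05, all 34 among them. DESeq2 called 27 of 19446 (0.139%) lower, of which 14 were among the 34.

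The genes were spread over 16 chromosomes, 14 on the plus strand and 20 on the minus strand, with a median length of 2446 bases against 2615 bases over all genes at the control level. Exons of 5 overlapped another gene, among them ID1, ier2b and trabd2b on the opposite strand. A position within 1000000 bases of the first or last annotated gene of a chromosome was held by 6 (17.6%), namely klb, SRF, homer2, ENSDARG00000102550, alox5b.3 and CCN1, against 7.24% of all genes at the control level. Of 245 neighbours at the control level within 250000 bases of the 34, 11 (4.49%) were lower without overlap, against 3.74% of all genes. The median ratio of these neighbours was 0.978, against 0.971 over all genes.

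Since 0.336% of all genes met the whole rule, a list of this size would hold about none at the background share, and the following counts are given without a reading. None of the 34 came from the lists of OEPD and otic genes (25 at the control level), Fgf signalling (21), nephric genes (14), blood and endothelium (17), forebrain (13), hindbrain and neural genes (21), epidermis and ionocytes (25) or neural crest (7). None came from motile cilia either, where 7 regulators, 70 axoneme and dynein assembly genes and 32 genes of intraflagellar transport reached the control level. Of the 70 axoneme genes, 1 was lower and 2 were higher without overlap, against 3.74% and 11.9% of all genes. Their median ratio was 0.865. Control III was the low sample here. All 142 matched genes of that list summed to 1424, 1630.5 and 879 CPM in control I, II and III. In atoh1b-MO II, IV and V the sum was 1209, 1549 and 1687 CPM. The same count of 0 held for other genes reported as regulated by Dlx3b/4b in the OEPD (10), of which robo4 was lower without overlap at a ratio of 1.48. It also held for otolith matrix (8), muscle (10), notochord and floor plate (13), Kupffer's vesicle (7), endoderm (7), hatching gland (5), yolk and apolipoprotein (2), proliferation (24) and p53 response (10). In all, 7 of the 34 genes were on any of the 25 lists.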

How the data were processed

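RNAseq of 3 control and 3 atoh1b-MO samples was deposited by the authors as raw counts per Ensembl gene, made with featureCounts (version 1.5.3 per the labels) and not normalized. Coordinates are those of the deposited table, for which the submitters' notes name GRCz10 and the study's methods GRCz11. The labels describe a directional poly(A) library and the study's methods Smart-seq2 cDNA with tagmentation, which keeps no strand, so reads of genes that overlap on opposite strands may not be told apart. Symbols of 26433 of 32266 identifiers came from a gene name table. Of 92 spike-in rows none had counts. The study calls the samples biological replicates and modelled a clutch effect, but the labels give no clutch, so it was not fitted here. No pair of samples agreed within sampling noise (chi-square of 11.7 to 122.6 for each degree of freedom).

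CPM used the column total. The 34 genes, the 25 lists and the roles were chosen with earlier results of these data known. Genes named were the 20 of largest ratio, the 5 of highest control level, the 5 of widest gap, list members, 2 genes on each side of each limit and genes named by the study. Models were fitted in R (version 4.3.3) with edgeR (version 4.0.16; TMM, filterByExpr, quasi-likelihood test, Benjamini-Hochberg adjustment) on 5 samples, without control III, and on 6, with DESeq2 (version 1.42.0) as an alternative. Only the edgeR fits were also run on simulated counts, and DESeq2 was not. The planted changes were larger than any ratio of the 34 genes, so that run does not bear on changes of their size. Counting intervals are exact binomial intervals of 95%. Alternatives were other scalings, limits and filters and leaving out each sample. Promoter motifs were not analysed here.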

Additional observations from a re-analysis of the deposited data

How the results depend on the processing

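Of 216 values of the ratio of 27 named genes of the set under 8 alternatives (TMM scaling, DESeq2's size factors and leaving out each sample), 212 moved by less than 1 SD of the replicates and 4 by more. Their direction is fixed by the choice of genes when a sample is left out. Leaving out 1 of 3 samples can move a group mean by only part of its SD, and a change of scaling shifts all genes nearly alike. Small moves were therefore largely set in advance, and neither the direction nor the count of 212 says anything about stability. The count of 34 genes became 66 with TMM scaling, 72 with DESeq2's size factors, 22 with a control level of at least 10 CPM, 127 with at least 1 CPM, 8 with a ratio of at least 2 and 130 with a looser limit on the ratio, and 44 to 347 when 1 sample was left out. Wider limits and fewer samples admit more genes by construction. Genes on fixed lists numbered 7 and became 3 with a ratio of at least 2 and 14 with the looser limit, and 9 to 38 without 1 sample. With 5 samples, edgeR's 9 calls became 5 at a threshold of 0.05, 20 without a filter on low counts, 22 with DESeq2 and 0 to 14 without 1 sample. With 6 samples the 0 calls of edgeR became 14 with DESeq2 and 0 to 9 without 1 sample, 9 without control III. The cause of these shifts in calls was not tested. No paired analysis was possible because the groups share only replicate number 2. For her4.4 and adamtsl5, the genes just inside the limit of 5 CPM, the counting interval of the closest samples included 1. The same held for the DLL1 of chromosome 13 at 81.3 CPM, while the interval of trabd2b at 8.68 CPM lay above 1.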

Other observations

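Close to ENSDARG00000102550, the gene of the widest gap, apoa1b (ENSDARG00000101324, chr15:31389-33853, minus strand), an apolipoprotein gene, lay 15352 bases away and had the opposite order of the groups. It was at 2.51, 0.296 and 4.28 CPM in control I, II and III and at 30.1, 34.3 and 26.5 CPM in atoh1b-MO II, IV and V, so the groups did not overlap. Its mean control level of 2.36 CPM was under the level of the rule. ENSDARG00000102000, 385 bases away, was at 3.23 CPM in controls and 4.41 CPM in atoh1b-MO samples on average. STYXL2, 2337 bases away, was at 7.97 and 5.18 CPM. These genes were picked after their values had been seen.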
